A study of Homo sapiens with 48 samples.

Results

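The genes described here are 10 transcription factors and response genes of the AP-1 and immediate early class: FOS, FOSL1, FOSL2, JUN, JUNB, JUND, EGR1, IER2, IER3 and IER5. They were listed by gene symbol, with earlier results of these data known. All 10 were found both among the 11145 genes with ribosome-protected fragments (RPFs) and among the 11947 genes with total RNA. The cells were SW480, an established line from a colorectal adenocarcinoma with mutant APC, carrying 1 of 3 doxycycline-inducible shRNAs: shCTRL (non-targeting), shEIF2B1 (against the eIF2Bα subunit) or shEIF2B4 (against eIF2Bδ). Cells of each line received 5 days of DMSO (-DOX, uninduced) or of DOX at 1 µg/ml (+DOX), which makes 6 groups. There were 4 replicates per group, 1 per week. Each of 24 lysates yielded an RPF library and a library of total cytoplasmic RNA, 48 in all. Each target was hit by a single inducible line here, so an effect of the depleted subunit and an effect of that shRNA or line cannot be told apart.

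Immediate early genes are switched on by growth factor and stress signals without new protein synthesis, mostly through ERK, JNK and p38 kinases acting on factors such as ELK1 and SRF. FOS and JUN family proteins pair into the dimer AP-1, which binds regulatory DNA of genes for proliferation, invasion and stress responses, and EGR1 is a zinc finger factor induced by the same signals. Their mRNAs and proteins are short-lived, so their output is set at transcription, mRNA decay and translation. eIF2B is the exchange factor that recharges the initiation factor eIF2 with GTP, and the question of the comparison was how translation of single mRNAs changes when a subunit of eIF2B is depleted.

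Because the largest differences of these genes were in ribosome occupancy, the sequence around each start codon is shown, taken from the GENCODE v29 transcript of the same identifier, 5′ to 3′, with the ATG in capitals, up to 10 bases of leader before it and the first 20 bases of the coding sequence (CDS) including it.
EGR1: ctcgtccaggATGgccgcggccaaggccga
FOS: aaccgccacgATGatgttctcgggcttcaa
FOSL1: agccccgggcATGttccgagacttcgggga
FOSL2: gaatccacATGgtacagggctggagaat
IER2: tcgagtcgccATGgaagtgcagaaagaggc
IER3: tcggctcaccATGtgtcactctcgcagctg
IER5: ggggaagcagATGgagttcaagctggaggc
JUN: ggactgttctATGactgcaaagatggaaac
JUNB: ggccgcccggATGtgcactaaaatggaaca
JUND: gaggcggaggATGgaaacacccttctacgg

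In 6 of the 10 genes an A or G stood 3 bases before the ATG, against 85.2% of the 11689 genes with such a context, and 5 of 10 had a G directly after it, against 53.1%. Both features together were held by EGR1, IER2 and JUND, 3 of 10, against 45.6% of all genes, and JUNB and JUN had neither. The genes were GC-rich. Their coding GC content ran from 60.5% in FOS to 73.3% in JUND, with a median of 65.9% against 52.1% over 11895 genes, and every one of the 10 lay above 78% of all genes. JUN, JUNB, JUND and IER5 had a single exon, which 2.5% of all genes have. This composition is given because RPF differences in these tables moved with it.

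On GRCh38, in the GENCODE v29 annotation, the transcripts lie as follows. EGR1 lies on chromosome 5 from 138465490 to 138469315, plus strand, with 2 exons. FOS lies on chromosome 14 from 75278774 to 75282230, plus strand, and JUN on chromosome 1 from 58780788 to 58784327, minus strand. JUNB, IER2 and JUND all lie on chromosome 19, JUNB from 12791496 to 12793315 (plus strand), IER2 from 13150433 to 13154908 (plus strand) and JUND from 18279760 to 18281622 (minus strand). FOSL1 lies on chromosome 11 from 65892220 to 65900526 (minus strand) and FOSL2 on chromosome 2 from 28392802 to 28417312 (plus strand). IER3 lies on chromosome 6 from 30743199 to 30744554 (minus strand) and IER5 on chromosome 1 from 181088712 to 181092899 (plus strand). Only FOSL2 had the same transcript version as the deposited tables, so leader sequences may differ from those the authors counted on.

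Values are regularized log2 values, for which the authors normalized RPF and total RNA libraries apart from each other, and no read counts or depth per library are given. RPF libraries of the same week resembled each other once group means were taken off (mean r 0.56 over genes). The mean r between weeks, -0.19, follows from taking off the group means and is no separate evidence. Comparisons were read within weeks, which pair the libraries by design. Library medians in RPFs ran from 6.84 to 6.97 in shEIF2B4, below those of the other lines, which reached 7.12. Of 10 colorectal epithelial marker genes 7 were in the tables, and of 10 markers of blood, endothelial and stromal cells 0. In RPFs 1 of those 7 was called after each knockdown, ASCL2 (0.59) after shEIF2B1 and CDH1 (1.196) after shEIF2B4. Of the targeted genes, EIF2B1 responded to shEIF2B1 by -0.53 in RPFs and -0.67 in total RNA, with limma adjusted p of 0.0109 and 0.0263, and EIF2B4 to shEIF2B4 by -0.48 and -0.49, with limma adjusted p of 0.236 and 0.0634, so only its RNA was called. Uninduced shEIF2B1 cells already had 0.45 less EIF2B1 than uninduced shCTRL cells in RPFs, on the log2 scale (difference -0.45, limma adjusted p = 0.000194). EIF2B4 was likewise lower in uninduced shEIF2B4 than in uninduced shCTRL cells. Its means were 7.77 and 8.19 in RPFs (SD 0.21 and 0.32) and 7.18 and 7.44 in total RNA (SD 0.23 and 0.18, n = 4 each).

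Levels in uninduced shCTRL cells were compared between genes per kilobase, with CDS length for RPFs and transcript length for total RNA. In RPFs the log2 level per kilobase was highest for IER3, which limits ERK inactivation and cell death, at 11.95 ± 0.41 (SD, n = 4), followed by FOSL1 at 10.15 ± 0.21. These 2 genes did not overlap each other or the next gene. EGR1 (8.70 ± 0.43), IER5 (8.64 ± 0.08), JUND (8.34 ± 0.43) and IER2 (8.11 ± 0.38) came next, and each of them overlapped its neighbour among these 4. FOS (7.45 ± 0.32), FOSL2 (7.33 ± 0.19), JUNB (6.79 ± 0.24) and JUN (6.78 ± 0.40) were lowest, each overlapping the next. In total RNA, IER3 (10.95 ± 0.14), FOSL1 (8.46 ± 0.36) and JUND (7.69 ± 0.23) led without overlap and JUNB was lowest at 5.12 ± 0.17 (SD, n = 4 each), overlapping IER2 at 5.38 ± 0.13.

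Ribosome occupancy after depletion of eIF2Bα rose in 4 of the 10 genes: EGR1, JUNB, IER2 and JUND. The response is the -DOX to +DOX change of the knockdown line after that of shCTRL is subtracted, from a limma fit in which weeks were blocks. Genes were called where the p, adjusted over the whole table by the Benjamini-Hochberg method, was under 0.1. No gene of the group fell, and the responses of all 10 were above 0, with a median of 0.43 against -0.011 over all genes. Among all RPF genes, 27.3% were called after shEIF2B1, so 4 of 10 is to be read against a high background. After depletion of eIF2Bδ, EGR1 and JUNB rose, 2 of 10, where 2.75% of all genes were called, and again all 10 responses were above 0 (median 0.46 against -0.017). Both responses subtract the same shCTRL libraries.

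**Figure D1:**
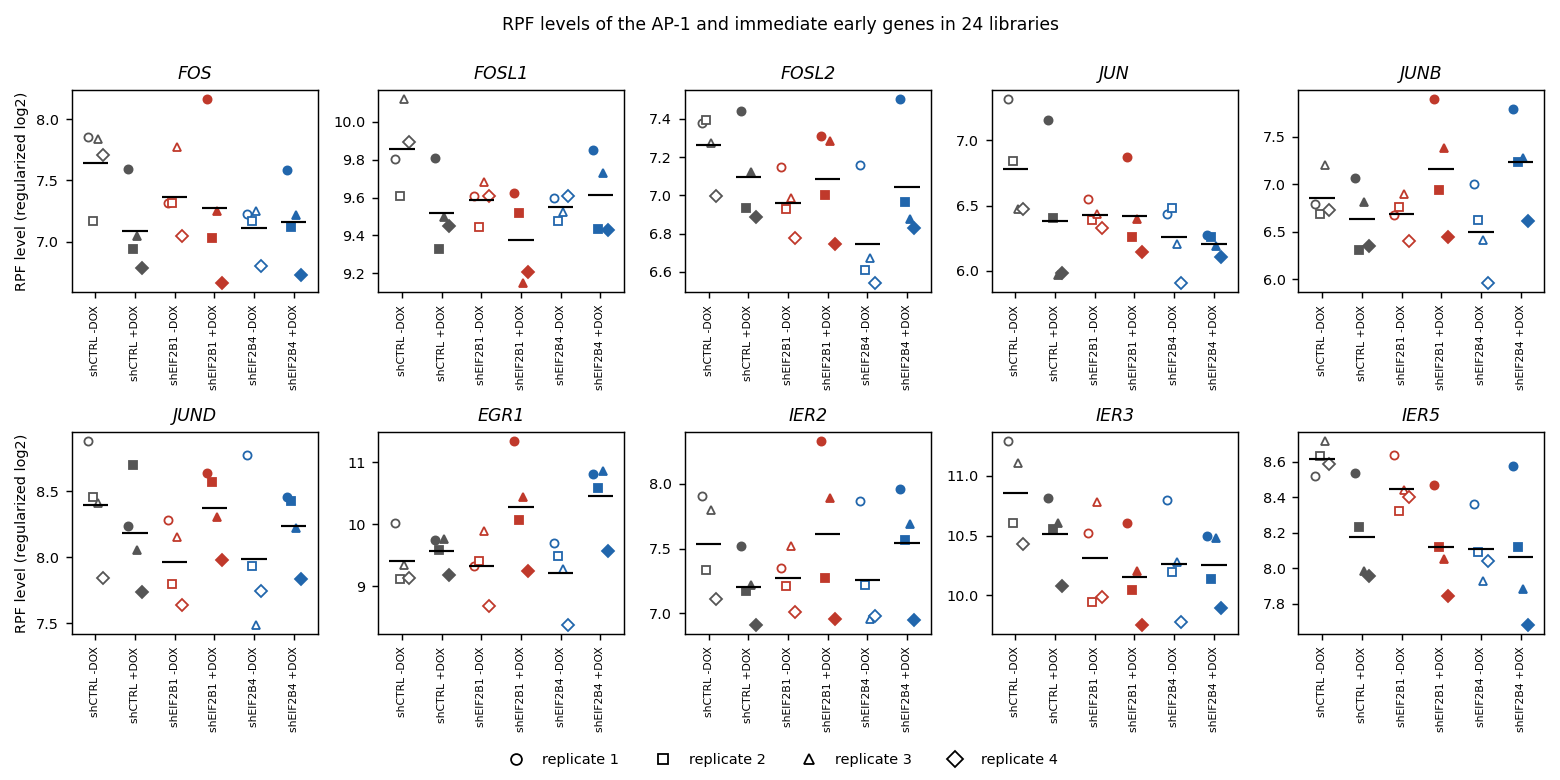
RPF levels (regularized log2, y axis; each panel has its own range) of the 10 genes in the 24 RPF libraries, by line and treatment on the x axis; open symbols are -DOX, filled symbols +DOX, symbol shapes the 4 weekly replicates and bars the group means. EGR1 and JUNB stand higher in the +DOX than in the -DOX libraries of both knockdown lines within every week, while the ranges of -DOX and +DOX libraries overlap in each line for all 10 genes.

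EGR1 had the largest response of the group. In shCTRL its RPF level was 10.02, 9.11, 9.35 and 9.13 in replicates 1 to 4 -DOX and 9.75, 9.58, 9.75 and 9.18 +DOX. In shEIF2B1 it was 9.32, 9.40, 9.90 and 8.67 -DOX and 11.34, 10.06, 10.44 and 9.25 +DOX. In shEIF2B4 it was 9.70, 9.49, 9.28 and 8.37 -DOX and 10.81, 10.59, 10.86 and 9.57 +DOX. Every induced knockdown library stood above the uninduced library of its week, while replicate 4 was low in both treatments and made the groups overlap. EGR1 responded by 0.78 (SE 0.27), or 1.72-fold, to shEIF2B1, with a limma adjusted p of 0.0525. To shEIF2B4 it responded by 1.08 (SE 0.23), or 2.11-fold, with a limma adjusted p of 0.0199, and both were above 0 in 4 of 4 weeks. The shEIF2B1 value leaned on replicate 1, in which the weekly response was 2.29, against 0.13 to 0.52 in the other weeks. Without that week the response was 0.28 (limma adjusted p = 0.43). For shEIF2B4 the response without replicate 1 was 0.98 (limma adjusted p = 0.00927), and its adjusted p was 0.132 and 0.104 without replicate 3 or 4.

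JUNB, the AP-1 subunit that often opposes JUN, showed a similar course. Its RPF level in shCTRL was 6.79, 6.69, 7.20 and 6.73 -DOX and 7.07, 6.31, 6.82 and 6.36 +DOX. In shEIF2B1 it was 6.68, 6.77, 6.90 and 6.41 -DOX and 7.89, 6.94, 7.38 and 6.45 +DOX, and in shEIF2B4 7.01, 6.62, 6.41 and 5.96 -DOX and 7.80, 7.23, 7.28 and 6.62 +DOX. All 8 weekly changes in the knockdown lines were upward, from 0.04 to 1.21, whereas 3 of 4 in shCTRL were downward. JUNB responded by 0.69 (SE 0.22) to shEIF2B1 and by 0.94 (SE 0.22) to shEIF2B4, with limma adjusted p of 0.0364 and 0.0423. Without replicate 3 the first had an adjusted p of 0.155 by limma, and the second was above 0.2 without replicate 2, 3 or 4 (0.207, 0.284 and 0.311) and 0.00174 without replicate 1.

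IER2, a short nuclear immediate early protein, stood at 7.91, 7.34, 7.80 and 7.11 in shCTRL -DOX and 7.52, 7.17, 7.22 and 6.91 +DOX. It was 7.35, 7.21, 7.52 and 7.01 in shEIF2B1 -DOX and 8.33, 7.27, 7.89 and 6.96 +DOX, and 7.87, 7.22, 6.96 and 6.98 in shEIF2B4 -DOX and 7.96, 7.57, 7.69 and 6.95 +DOX. It fell in every week of shCTRL and rose in 3 of 4 weeks of each knockdown line. IER2 responded by 0.67 (SE 0.18) to shEIF2B1, with a limma adjusted p of 0.0155, and by 0.62 (SE 0.18) to shEIF2B4, where the limma adjusted p of 0.104 was just outside the threshold. JUND, the AP-1 subunit that is present in most resting cells, was 8.88, 8.46, 8.41 and 7.84 in shCTRL -DOX and 8.23, 8.70, 8.06 and 7.74 +DOX. In shEIF2B1 it was 8.28, 7.80, 8.15 and 7.64 -DOX and 8.64, 8.57, 8.31 and 7.98 +DOX, higher in each week. In shEIF2B4 it was 8.78, 7.93, 7.49 and 7.74 -DOX and 8.45, 8.43, 8.22 and 7.83 +DOX, higher in 3 weeks and lower in replicate 1. JUND responded by 0.62 (SE 0.18) and 0.46 (SE 0.23), with limma adjusted p of 0.0222 and 0.338. Without replicate 1 the shEIF2B1 responses of IER2 and JUND were 0.44 and 0.50, with limma adjusted p of 0.118 and 0.131, and JUNB was then the only one of the 10 called. After shEIF2B4 the same omission worked the other way, and all 10 genes were called, where 14.5% of all genes were.

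The remaining 6 genes were not called after either knockdown in RPFs. FOS, the classical partner of JUN, was 7.85, 7.17, 7.84 and 7.71 in shCTRL -DOX and 7.59, 6.94, 7.05 and 6.79 +DOX. In shEIF2B1 it was 7.31, 7.32, 7.77 and 7.05 -DOX and 8.16, 7.03, 7.25 and 6.66 +DOX, up in replicate 1 and down in the other 3 weeks. FOS responded by 0.46 to shEIF2B1 (95% CI -0.04 to 0.97, limma adjusted p = 0.188) and 0.60 to shEIF2B4 (95% CI 0.19 to 1.02, limma adjusted p = 0.147). JUN responded by 0.39 and 0.35, and FOSL2 by 0.29 and 0.46. FOSL1, the FOS relative found in invasive carcinoma lines, responded by 0.13 and 0.40. IER3 responded by 0.19 and 0.34, and IER5, a regulator of the heat shock factor HSF1, by 0.11 and 0.39. Their limma adjusted p ranged from 0.14 to 0.649 over both knockdowns.

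**Figure D2:**
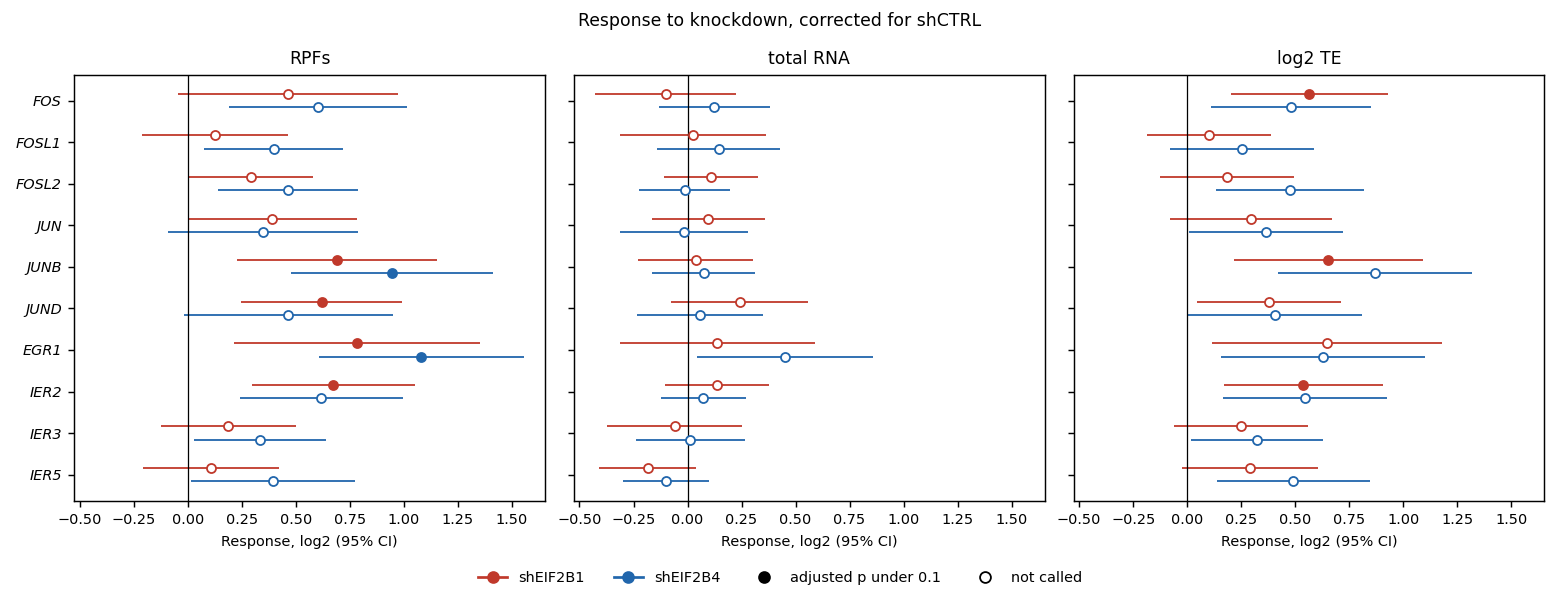
Responses to shEIF2B1 and shEIF2B4 (x axis, log2, with 95% confidence intervals) of the 10 genes in RPFs, total RNA and log2 translation efficiency, on a common scale; filled points have a limma adjusted p under 0.1. The RPF and efficiency points all lie above 0, and the total RNA points lie between -0.18 and 0.45 with none filled.

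In total RNA limma called none of the 10 after shEIF2B1, where 3.47% of the table passed, or after shEIF2B4, where 5.4% did. At an unadjusted p under 0.05, 0 and 1 of the 10 passed, where 1825 and 2057 of 11947 genes did. The 1 was EGR1 with a response to shEIF2B4 of 0.45 (95% CI 0.04 to 0.86, limma adjusted p = 0.234). After shEIF2B1 the total RNA response of EGR1 was 0.14 (95% CI -0.31 to 0.59). JUNB moved by 0.04 and 0.07 in total RNA, IER2 by 0.14 and 0.07, and JUND by 0.24 and 0.06. Within the shEIF2B4 line alone, with no subtraction of shCTRL, EGR1 RNA rose by 0.62 (limma adjusted p = 0.000756) and JUN and IER5 RNA fell by 0.29 each (difference -0.29, limma adjusted p of 0.0274 and 0.0185), in a line where 34.4% of all genes were called. EGR1 RNA was 8.56, 8.64, 8.36 and 8.22 in shEIF2B4 -DOX and 8.92, 9.39, 9.42 and 8.56 +DOX, up in every week. Within shEIF2B1, where 34.4% were called as well, RNA of FOS, FOSL1 and IER5 fell, by -0.34, -0.25 and -0.38.

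IER5 was the one gene of the group whose -DOX and +DOX libraries did not overlap in total RNA, and it was lower on DOX in all 3 lines. Its RNA level was 8.83, 8.80, 8.84 and 8.94 in shCTRL -DOX and 8.76, 8.65, 8.48 and 8.74 +DOX. In shEIF2B1 it was 8.83, 8.89, 8.85 and 8.92 -DOX and 8.60, 8.36, 8.56 and 8.46 +DOX, and in shEIF2B4 8.83, 8.81, 8.66 and 8.71 -DOX and 8.59, 8.41, 8.32 and 8.52 +DOX. Such separation in the downward direction was met by 3.26% of all genes in shCTRL, 14% in shEIF2B1 and 12% in shEIF2B4, and by 0.845% in all 3 lines at once. IER5 was singled out after its values were seen. The fall in shCTRL was -0.19 (limma adjusted p = 0.172), and the responses after its subtraction were -0.18 and -0.10, neither called.

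Translation efficiency, the RPF minus the total RNA log2 value of the same lysate, was higher after shEIF2B1 for JUNB (0.65, SE 0.21), FOS (0.57, SE 0.18) and IER2 (0.54, SE 0.18), with limma adjusted p of 0.0871, 0.0779 and 0.0917. These were 3 of 10 genes, where 7.1% of all genes were called. EGR1 had an efficiency response of nearly the same size, 0.65, with a larger standard error of 0.26 (limma adjusted p = 0.161). After shEIF2B4 none of the 10 was called, where 0.0923% of all genes were, with JUNB at 0.87 and EGR1 at 0.63 (limma adjusted p of 0.131 and 0.21). At an unadjusted p under 0.05, 9 of the 10 passed in that line, where 1848 of 10836 genes did. With the GC trend removed 1 of the 10 passed. Without replicate 1, 5 were called as deposited, and the share of all genes called in that refit is not reported here. All 10 efficiency responses were above 0 after both knockdowns as deposited. With the GC trend removed, 6 of 10 were above 0 after shEIF2B1, FOSL1, FOSL2, IER3 and IER5 being below, and the median went from 0.34 to 0.06. The 3 calls after shEIF2B1 were lost without replicate 1, 3 or 4.

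Part of several of these responses came from shCTRL. In its RPFs 6 of 10 genes were called lower on induction, FOS, JUN, FOSL1, IER2, IER3 and IER5, where 9.85% of all genes were called in either direction. FOS fell most, by 0.55 (difference -0.55, standard error 0.13, limma adjusted p = 0.0465), followed by IER5 (-0.43), JUN (-0.40), IER3 (-0.35), FOSL1 (-0.34) and IER2 (-0.33). JUNB and JUND moved by -0.21 and -0.22 and FOSL2 by -0.16, without a call, and EGR1 by 0.17. None of these 6 falls was called without replicate 2, 3 or 4, and without replicate 1 EGR1 was called higher (0.31) and JUNB lower (-0.38) as well. In total RNA and in translation efficiency limma called 0 of the 10 in shCTRL, where 4.44% and 0.388% of all genes were called. At an unadjusted p under 0.05, 4 and 5 of the 10 passed, where 2401 of 11947 and 1630 of 10836 genes did. After removal of the GC trend, 4 and 1 of the 10 passed. All 10 efficiency changes were below 0, that of EGR1 being -0.007 (SE 0.13). With the GC trend removed 3 of 10 were above 0, and the median went from -0.18 to -0.08.

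Within the knockdown lines, with no subtraction, the group therefore split. In shEIF2B1, where 49.4% of all genes were called, RPFs of EGR1 (0.95), JUNB (0.48), JUND (0.41) and IER2 (0.34) rose and IER5 fell (-0.33), with limma adjusted p of 2.24e-05, 0.00829, 0.00421, 0.0396 and 0.0136. FOS (-0.09), JUN (-0.01), FOSL1 (-0.21), FOSL2 (0.13) and IER3 (-0.16) were not called. In shEIF2B4, where 23.8% of all genes were called, EGR1 (1.25), JUNB (0.73) and FOSL2 (0.30) rose, and FOS (0.05), JUN (-0.05), IER3 (-0.01) and IER5 (-0.04) stood close to 0. The responses of FOS, JUN, IER3 and IER5 after subtraction thus rested on the shCTRL change, and those of EGR1 did not, since EGR1 in shCTRL moved the other way.

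**Figure D3:**
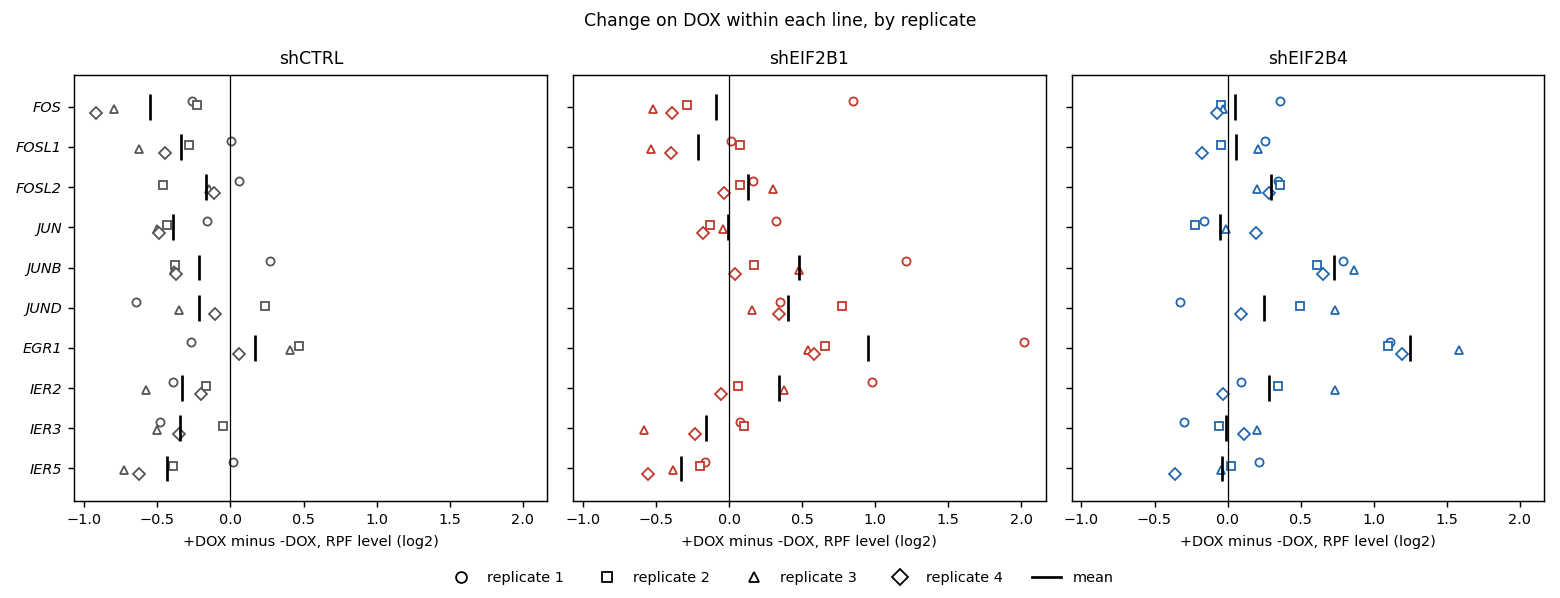
Change in RPF level from -DOX to +DOX (x axis, log2) of each gene within shCTRL, shEIF2B1 and shEIF2B4; symbols are the 4 weekly replicates and vertical bars their means. In shCTRL 9 of the 10 means lie below 0, and EGR1 and JUNB lie to the right of 0 in all 4 weeks of both knockdown lines.

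The induced lines were also compared with induced shCTRL directly, a comparison added after the data were seen. In RPFs EGR1 (0.71), JUNB (0.53) and IER2 (0.41) were higher and IER3 lower (-0.36) in shEIF2B1, where 10.5% of all genes were called, with limma adjusted p of 0.00115, 0.00517, 0.0408 and 0.0271. In shEIF2B4 the same 4 genes were called in the same directions, EGR1 at 0.89, JUNB at 0.59, IER2 at 0.34 and IER3 at -0.26, where 29.4% of all genes were called. JUND differed by 0.19 and 0.05 and was not called. IER3 was lower by more in the uninduced lines against uninduced shCTRL (differences -0.55 and -0.60), and its responses were above 0 (0.19 and 0.34). Both comparisons with induced shCTRL use the same shCTRL libraries.

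The uninduced knockdown lines were compared with uninduced shCTRL. In uninduced shEIF2B1 7 of 10 were lower, where 54.1% of all genes were called in either direction, led by IER3 (-0.55, limma adjusted p = 4.97e-05) and JUND (-0.43, limma adjusted p = 0.000907), while EGR1, JUNB and IER5 (-0.08, -0.16 and -0.16) were not called. In uninduced shEIF2B4 FOS, FOSL2, IER3, IER5 and JUN were lower, 5 of 10, where 13.9% of all genes were called, with differences from -0.51 to -0.60. With each library centred on its median none of those 5 was called, nor were any of the 10 without replicate 2 or 4, while 9 were without replicate 1 and 2 without replicate 3. The shares of all genes called in these refits are not reported here, so the 9 cannot be read as particular to these genes. With the GC trend of each library removed, the median differences of the 10 went from -0.28 to -0.04 in shEIF2B1 and from -0.46 to -0.06 in shEIF2B4. After that removal 4 of 10 lay above 0 in each line, and 1 (IER3) and 0 were called, where 13.2% and 1.25% of all genes were. In total RNA limma called 0 of the 10 in either line, where 1.4% and 2.32% of all genes were called. At an unadjusted p under 0.05, 3 and 0 of the 10 passed, where 1569 and 1890 of 11947 genes did. The response equals the difference between the induced lines minus the difference between the uninduced lines. For JUND after shEIF2B1 the induced difference was 0.19 and the uninduced one -0.43, which together make up its response of 0.62.

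RPF responses moved with the GC content of the coding sequence over the whole table. Across 10847 genes the Pearson r was 0.63 for shEIF2B1 and 0.55 for shEIF2B4, and it was -0.81 and -0.77 for the uninduced lines against uninduced shCTRL. These are correlations across genes of the same libraries, and genes are not independent replicates. In the 10% of genes with the highest GC content, 64.0% or more, the median response to shEIF2B1 was 0.31 and 38.4% were called higher, and in the lowest 10% the median was -0.40. JUN, JUNB, JUND, IER2, IER3 and IER5 belong to the GC-richest set. JUNB, IER2, JUND and JUN stood above its median after shEIF2B1 and IER3 (0.19) and IER5 (0.11) below it.

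With the GC trend of each library removed by a spline, an alternative added after the data were seen, none of the 10 genes was called after shEIF2B1, where 8.26% of all genes were and 1 of the 10, IER5 with -0.29, had an unadjusted p under 0.05, and their median response went from 0.43 to 0.16. EGR1 was then at 0.54 (limma adjusted p = 0.266), JUNB at 0.36, IER2 at 0.31 and JUND at 0.21, and FOSL1, IER3 and IER5 were below 0. After shEIF2B4 EGR1 (0.90, limma adjusted p = 0.0499) and JUNB (0.70, limma adjusted p = 0.0913) were still called, where 1.89% of all genes were, and all 10 remained above 0 with a median of 0.24. Of the 6 falls in shCTRL, only that of FOS was called after the same removal (-0.52, limma adjusted p = 0.0702), where 5.73% of all genes were. The same 6 genes still had an unadjusted limma p under 0.05. The part that base composition has in the RPF differences, as biology or as a property of the libraries, was not tested.

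**Figure D4:**
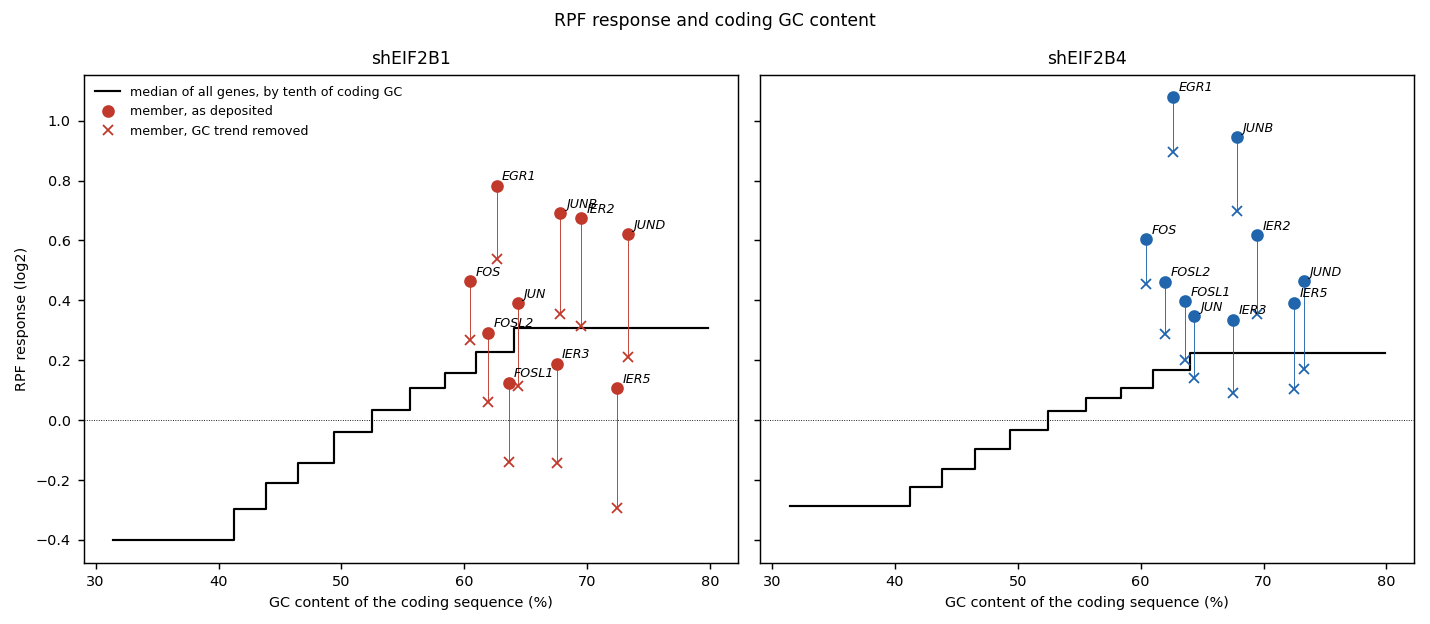
RPF response (y axis, log2) against GC content of the coding sequence (x axis, %) for shEIF2B1 and shEIF2B4; the black steps are medians of all genes in 10 groups of GC content, filled points the 10 genes as deposited, and crosses the same genes with the GC trend removed. Medians climb from -0.40 to 0.31 for shEIF2B1 and from -0.29 to 0.22 for shEIF2B4, and EGR1 and JUNB stand farthest above the steps after shEIF2B4.

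The responses to the 2 knockdowns were then tested against each other over all 24 lysates. Limma called 0 of the 10 in RPFs, where 1 gene of the table (0.00897%) was called, and 0 in total RNA, where 0.1% were, and none had an unadjusted p under 0.05 in either. In RPFs the difference, shEIF2B1 minus shEIF2B4, was -0.30 for EGR1 (95% CI -0.86 to 0.26), -0.25 for JUNB (95% CI -0.73 to 0.22), 0.06 for IER2 (95% CI -0.36 to 0.47) and 0.16 for JUND (95% CI -0.29 to 0.60). The widest of these intervals, that of EGR1, spans more than its response to shEIF2B1.

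Over the 24 RPF libraries, with the mean of each week removed, the 10 genes did not follow a single course. The Pearson r was 0.81 between JUNB and EGR1, 0.78 between JUNB and IER2 and 0.64 between EGR1 and IER2. A second set was formed by FOS with IER5 (0.69), FOSL1 with IER5 (0.68), and FOSL1 and JUN with IER3 (0.61 and 0.60). The sets were not cleanly apart. FOS had an r of 0.47 with IER2 and 0.39 with JUNB, above the 0.30 of FOSL1 with JUN, while r was -0.38 between EGR1 and IER5, -0.26 between EGR1 and IER3 and -0.05 between JUNB and JUN. The genes outside the group most like EGR1 were MAOA (0.94), FMNL3 (0.89) and KCNH2 (0.88). For JUNB they included PEPD (0.85) and AP1G2 (0.82), and for IER2 they were PABPC1L (0.82), SDHAF1 (0.79) and TYMP (0.78). The libraries share their lines and treatments, so these values describe likeness only.

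Other genes of the pathway were taken from fixed lists. Of the AP-1 partners, bZIP proteins that can pair with FOS or JUN, 10 of 12 were measured in RPFs, and after shEIF2B1 the small MAF genes MAFK (0.67), MAFF (0.56) and MAFG (0.51) rose, with limma adjusted p of 0.00381, 0.00862 and 0.0423, where 27.3% of all genes were called. With the GC trend removed none of the 10 was called after shEIF2B1. None was called after shEIF2B4, and MAFG and MAFK fell in shCTRL (-0.38 and -0.36). Of 30 other immediate early genes 24 were measured, and 5 rose and 2 fell after shEIF2B1, a share close to the 27.3% of all genes called. KLF4, a zinc finger factor of epithelial differentiation, rose by 1.13, ZFP36L1 and ZFP36L2, which bind AU-rich elements and promote mRNA decay, by 0.79 and 0.53, and IER5L and NR4A1 by 0.58 and 0.38, while BHLHE40 (-0.58) and TIPARP (-0.36) fell. The rule for naming genes would have stopped at 6 for this list, so NR4A1, TIPARP, BHLHE40, MCL1 and CCN2 are named after their values were seen. After shEIF2B4 KLF4 (0.89), ZFP36L1 (0.83) and ZFP36L2 (0.74) rose and CCN1 (-0.59), a matrix protein, fell, where 2.75% of all genes were called. With the GC trend removed, KLF4, ZFP36L1 and BHLHE40 were still called after shEIF2B1, and ZFP36L2, CCN1 and CCN2 were called after shEIF2B4.

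Upstream of the group, 21 of 23 kinases and regulators were measured in RPFs. Calls in RPFs are to be read against 27.3% of all genes after shEIF2B1 and 2.75% after shEIF2B4. After shEIF2B1 ELK1, an ERK-responsive activator of FOS and EGR1 transcription, rose by 0.56 (limma adjusted p = 0.00581) and MAPK14, the p38α kinase, fell (-0.44, limma adjusted p = 0.0284). None of the 21 was called after shEIF2B4, and neither call was held with the GC trend removed. Of the 10 measured phosphatases and Sprouty-type inhibitors that ERK induces, 0 were called in RPFs after either knockdown, against the same shares of all genes. DUSP6 was lower in total RNA after shEIF2B1 (-0.47, limma adjusted p = 0.0595), where 3.47% of all genes were called. MAP2K4 RNA was higher after shEIF2B4 (0.48, limma adjusted p = 0.0195), where 5.4% of all genes were called in total RNA.

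Downstream, 13 of 24 genes often given as AP-1 targets were measured in RPFs. After shEIF2B1 TNC (0.70), VEGFA (0.62), TGFB1 (0.55) and PLAUR (0.45) rose, 4 of 13, a share close to the 27.3% of all genes. After shEIF2B4 none was called, where 2.75% of all genes were. VEGFA alone was called with the GC trend removed. In total RNA, 14 were measured and the EGF receptor ligands AREG and HBEGF rose after both knockdowns. AREG RNA responded by 0.76 and 1.26, with limma adjusted p of 0.000212 and 8.26e-06, and HBEGF RNA by 0.36 and 0.59, with limma adjusted p of 0.0497 and 0.00448. Among other immediate early genes in total RNA, BTG1 (0.77), MCL1 (0.47) and KLF4 (0.37) rose and CCN1 (-0.51) fell after shEIF2B4, and BHLHE40 (-0.42) fell after shEIF2B1.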

How the data were processed

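Ribo-seq and total cytoplasmic RNA of 24 SW480 lysates (48 libraries) were used, grouped by the shRNA, treatment and replicate in the labels. The authors used GENCODE v38 protein-coding transcripts, with Bowtie2 and RSEM for total RNA, took for each gene its most abundant transcript and counted RPFs on the CDS of that transcript. Reads of replicate 3 came from joined runs. The processing notes also name cutadapt 1.18, SAMtools 1.9 and R 4.3.1. The values deposited by the authors are regularized log2 values from DESeq2, made separately for RPFs and total RNA. Regularization shrinks differences of weakly covered genes. No counts are given, so depth is unknown and no count test was possible.

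Tests used limma 3.58.1 in R 4.3.3 (lmFit with the week as a block, shRNA, DOX and their product; eBayes with trend; two-sided; Benjamini-Hochberg over all genes of the table; threshold 0.1). No low-value filter was applied. The weeks pair the libraries by design. After group means were removed, 52 of 60 same-week pairs had a correlation over 0.1 in RPFs, 37 of 60 in total RNA and 55 of 60 in log2 TE. The methods were run on simulated data in which the noise was independent between genes. Those data held no GC trend between groups, so they cannot show how the calls behave under one. Named genes were the 10 members, EIF2B1, EIF2B4, the called members of each list (at most 6 a list) and the 3 genes most correlated with each of the 3 members with the largest called RPF response. Some named results are not reported here. Members and lists were chosen with earlier results of these data known. CDS composition and positions come from GENCODE v29 (matched for 97.3% of the genes with RPFs and 97.1% of those with total RNA), a different release from the authors' v38. Alternatives are listed in the closing section. Figures were drawn with matplotlib 3.10.9 in Python 3.11.15.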

Additional observations from a re-analysis of the deposited data

Results flagged for a closer look

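Of 120 groups of 4 libraries (10 genes, RPFs and total RNA, 6 groups each), 5 held a library that stood apart by Dixon's test, where chance gives about 1 in 20 groups, and all were in total RNA. FOS RNA was 8.00 in shEIF2B1 +DOX replicate 1 and 7.40 to 7.50 in the other replicates of that group. JUNB RNA was 6.30 in shCTRL +DOX replicate 3, against 5.94 to 5.99, and 6.24 in shEIF2B4 -DOX replicate 3, against 5.996 to 6.037. IER2 RNA was 6.51 in shCTRL +DOX replicate 3, against 6.30 to 6.32, and 6.30 in shEIF2B1 -DOX replicate 1, against 6.50 to 6.53. Replicate 3 holds 3 of the 5, and its reads came from joined sequencing runs. Whether the joining has a part in these values was not tested.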

How the results depend on the processing

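Counts are of the 10 genes called. Where no share of all genes is given beside a count, the share under that setting is not reported here. Such a count cannot be read as particular to these genes. Without the replicate block 0 were called in RPFs after shEIF2B1, shEIF2B4 and shCTRL induction, 0 in either uninduced line, and 0 in TE after shEIF2B1 (main counts 4, 2, 6, 7, 5 and 3). A fit to each week's change, blocked by week, called 7 and 8 in RPFs after shEIF2B1 and shEIF2B4, and 4 in TE after shEIF2B4. Leaving out 1 replicate gave 1 to 4 and 0 to 10 in RPFs after shEIF2B1 and shEIF2B4, 0 to 1 in total RNA after shEIF2B4, 0 to 3 and 0 to 5 in TE, 0 to 8, 0 to 3 and 0 to 3 in shCTRL (RPFs, total RNA, TE) and 0 to 9 in uninduced shEIF2B4. The 10 called after shEIF2B4 came without replicate 1, where 14.5% of all genes were called, as did the 9, the 5, the 8 and both counts of 3 in shCTRL. With no shCTRL correction 3 and 3 were called in total RNA and 2 in TE after shEIF2B4. In TE after shEIF2B1 there was 1 call with no mean-variance trend and 0 in one fit of all 24 lysates or at a threshold of 0.05, which left 1 call in shCTRL RPFs. With the lowest 25% of genes left out 1 was called in shCTRL total RNA and 3 in uninduced shEIF2B4, and with libraries centred 0 in the latter. Among alternatives added after the data were seen, removal of the GC trend left 0 in RPFs and 0 in TE after shEIF2B1, 1 in shCTRL RPFs, and 1 and 0 in uninduced shEIF2B1 and shEIF2B4, where IER2 turned from -0.27 to 0.049 in shEIF2B1. Against induced shCTRL, 4 were called in RPFs, 2 in total RNA and 2 in TE after shEIF2B4, and 1 in TE after shEIF2B1. The cause of these changes was not tested. Over 150 single-gene results, 1364 alternatives gave the same outcome, 131 were weaker, 68 stronger and 1 reversed. Depth is unknown, so it was not tested as a limit.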
